A study of Mus musculus with 4 samples.

Results

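The genes described here are collagen chains, matrix metalloproteinases (MMPs), the inhibitor Timp1, the ADAM and ADAMTS proteases, serpins and cathepsins. They were taken from a mouse cDNA array by the start of the gene symbol (Col, Mmp, Timp or Adam and a digit, Adamts, Serpin, or Cts and 1 letter), with Col4a1, Col4a2, Col18a1 and Ctsh left out. The rule found 62 genes on 67 probes, of 6025 genes named in all. There were 15 collagen chains, 10 MMPs, 1 Timp, 9 ADAMs, 5 ADAMTS genes (with the ADAMTS-like gene Adamtsl2), 12 serpins and 10 cathepsins. The collagens were not only interstitial: beside 5 fibril-forming chains they held 6 chains that associate with fibrils, the transmembrane chains Col17a1 and Col23a1, the microfibril chain Col6a1 and the basement membrane chain Col4a5.

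RNA came from 3 kinds of mouse embryonic stem (ES) cells, which are pluripotent cells of the early embryo grown here without feeder cells. The fosBd/d line is homozygous for an allele that makes only ΔFosB, the truncated form of the AP-1 subunit FosB, the fosB-null cells are named as lacking FosB, and wild-type cells were the partner on every array. Cells were starved of serum for 72 h and then given serum for 4 h, per the series title. Of the 4 arrays, each with 2 colours, 2 carried fosBd/d and 2 fosB-null RNA, with the dyes exchanged between the 2 arrays of a mutant, and no label tells whether a mutant's 2 arrays came from separate cultures. The p-values below therefore cover differences between arrays alone, which may be technical.

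Each value is a log2 ratio of the 2 colours of an array. Its sign needs care. The exact zeros of fosBd/d replicate 1 and fosB-null replicate 2 carry a minus sign in the file, as turning a column over leaves it, so the columns of a mutant appear to run one way already. Over all probes, fosBd/d replicate 1 and fosB-null replicate 1, which share a dye orientation, nevertheless had a correlation of -0.46, and the replicates 2 had one of -0.37. The 2 arrays of a mutant also had negative correlations, -0.12 in fosBd/d and -0.32 in fosB-null, and with the turning undone all 6 pairs of arrays were positive, from 0.12 to 0.46. In the fit described below, the dye term had an unadjusted limma p under 0.05 in 2034 of 8939 features and in 7 of the 62 genes. The direction is therefore not settled. Taken by the dye names, a positive fosBd/d ratio is likely more RNA in fosBd/d cells, whereas a positive fosB-null ratio is less RNA in fosB-null cells. If all columns were mutant over wild type, a positive ratio would be more RNA in both mutants. The labels also pair the dyes with colour words that point the other way. Ratios are given as deposited, and those of fosB-null also with the sign turned. In bulk RNA, fewer cells of a type and less RNA per cell cannot be told apart.

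Collagens form triple helices that are secreted, trimmed and cross-linked into the fibres and sheets of the extracellular matrix. MMPs, ADAMs and ADAMTS enzymes are zinc proteases that cut matrix and cell surface proteins, and TIMPs block them. Serpins are mostly inhibitors of serine proteases, and cathepsins are the proteases of the lysosome. Several genes of these families, MMPs among them, are textbook targets of AP-1, which binds the sequence TGANTCA, and primitive endoderm derived from ES cells lays down a thick basement membrane.

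The start regions of the genes were searched for TGANTCA, which reads the same on both strands. RefSeq start windows (GRCm38.p6, from 250 bases before the start to 50 after) were given for 42 of the 62 genes, and 7 of these 42 (16.7%) held the letters, against 8.97% of the 27025 genes with a window. The 7 were Mmp7, Mmp12, Col6a1, Serpinb2, Serpinb8, Serpina1b and Serpina1c. A match is a description of the letters and not a measured site. Their 7 windows are shown because they hold the letters, and that of Ctsl because it had the largest fosBd/d mean and holds none in this window; capitals mark TGANTCA.
Mmp7 (chr9:7691840-7692139, + strand): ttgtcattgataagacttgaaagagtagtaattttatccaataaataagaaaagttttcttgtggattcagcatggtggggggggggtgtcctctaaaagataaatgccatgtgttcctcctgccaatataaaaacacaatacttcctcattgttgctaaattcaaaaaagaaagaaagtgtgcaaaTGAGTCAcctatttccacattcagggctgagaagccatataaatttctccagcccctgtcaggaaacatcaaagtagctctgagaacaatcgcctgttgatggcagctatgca
Mmp12 (chr9:7347124-7347423, + strand): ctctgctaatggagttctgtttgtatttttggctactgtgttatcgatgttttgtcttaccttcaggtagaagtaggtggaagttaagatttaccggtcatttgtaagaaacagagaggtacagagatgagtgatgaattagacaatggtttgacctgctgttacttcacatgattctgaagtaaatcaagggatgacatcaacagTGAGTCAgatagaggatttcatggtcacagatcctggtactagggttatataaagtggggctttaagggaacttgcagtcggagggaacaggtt
Col6a1 (chr10:76725995-76726294, - strand): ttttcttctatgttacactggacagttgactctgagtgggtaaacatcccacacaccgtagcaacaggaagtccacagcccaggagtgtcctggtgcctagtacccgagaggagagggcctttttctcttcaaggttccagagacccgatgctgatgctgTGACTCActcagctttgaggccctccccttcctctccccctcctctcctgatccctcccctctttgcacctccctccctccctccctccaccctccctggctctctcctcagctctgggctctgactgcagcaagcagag
Serpinb2 (chr1:107511173-107511472, + strand): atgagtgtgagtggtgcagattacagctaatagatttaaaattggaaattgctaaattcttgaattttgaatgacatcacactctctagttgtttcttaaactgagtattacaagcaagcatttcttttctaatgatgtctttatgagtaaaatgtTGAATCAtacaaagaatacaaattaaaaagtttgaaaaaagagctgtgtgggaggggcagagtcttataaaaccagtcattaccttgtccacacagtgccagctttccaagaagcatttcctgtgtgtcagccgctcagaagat
Serpinb8 (chr1:107589756-107590055, + strand): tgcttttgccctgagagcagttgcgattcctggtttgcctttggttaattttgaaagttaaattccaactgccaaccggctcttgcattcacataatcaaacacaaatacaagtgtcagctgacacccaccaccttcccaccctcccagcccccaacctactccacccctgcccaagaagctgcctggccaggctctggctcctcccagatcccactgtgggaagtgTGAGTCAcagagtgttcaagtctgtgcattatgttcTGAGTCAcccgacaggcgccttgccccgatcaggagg
Serpina1b (chr12:103738140-103738439, - strand): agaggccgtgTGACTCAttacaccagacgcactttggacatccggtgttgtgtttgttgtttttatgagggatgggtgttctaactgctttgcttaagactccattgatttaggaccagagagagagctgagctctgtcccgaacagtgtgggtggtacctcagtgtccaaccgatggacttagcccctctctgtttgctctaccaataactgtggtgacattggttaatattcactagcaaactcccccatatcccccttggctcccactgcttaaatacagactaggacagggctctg
Serpina1c (chr12:103904901-103905200, - strand): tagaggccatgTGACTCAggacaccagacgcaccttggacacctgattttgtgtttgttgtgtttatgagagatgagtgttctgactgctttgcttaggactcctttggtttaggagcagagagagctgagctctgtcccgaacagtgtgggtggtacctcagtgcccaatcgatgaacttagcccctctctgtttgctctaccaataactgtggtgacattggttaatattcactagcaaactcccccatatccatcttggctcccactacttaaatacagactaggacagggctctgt
Ctsl (chr13:64370471-64370770, - strand): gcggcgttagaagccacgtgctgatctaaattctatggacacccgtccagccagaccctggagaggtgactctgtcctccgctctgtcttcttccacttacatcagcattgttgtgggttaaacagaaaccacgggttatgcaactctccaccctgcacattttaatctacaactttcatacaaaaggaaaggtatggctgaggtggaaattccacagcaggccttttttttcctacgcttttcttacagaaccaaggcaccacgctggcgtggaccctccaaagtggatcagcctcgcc

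The letters stood 63 bases before the start in Mmp7, 44 in Mmp12, 90 in Col6a1, 94 in Serpinb2, 240 in Serpina1b and 239 in Serpina1c, and Serpinb8 held them at 2 places, on either side of its start. Serpinb2 also had another start, 181 bases after the same letters, whose window is not shown. Mmp7 (matrilysin) had fosBd/d ratios of 0.00 and -0.30, and Mmp12 (macrophage elastase) had -0.43 and 0.13. Serpinb2 (plasminogen activator inhibitor 2) had -0.16 and 0.44, and Col6a1 had 0.74 and 0.31. Serpina1b (α1-antitrypsin) had 0.23 and 1.34, its near copy Serpina1c had -1.34 and 0.04, and Serpinb8, a clade B serpin, had -1.98 and 1.04. Of the 7 genes, Col6a1 and Serpina1b had both fosBd/d arrays on the positive side, beside 21.7% of all features. On the negative side 0 had both, beside 22.3%. Ctsl, without the letters in its window, had 1.40 and 1.81, and for Serping1 no window was given. Whether the letters bear on any ratio was not tested.

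In fosBd/d cells the median of the whole set lay near 0, family medians ran from -0.31 for the ADAMTS genes to 0.14 for the ADAMs with Timp1 at 0.48, and 2 single genes stood out on the positive side. Ctsl, the lysosomal cysteine protease cathepsin L, had the highest mean of the 62 genes, and Serping1, the C1 inhibitor that restrains complement and contact-phase proteases, had the next. Timp1, the inhibitor of MMPs, and the serpins Serpinf1 and Serpind1 were moderately positive on both arrays, with means of 0.48, 0.50 and 0.49. Genes of other families were so too, with means of 0.60 for Ctsa, 0.58 for Col4a5, 0.53 for Col6a1, 0.52 for Mmp23 and 0.48 for Adam15. The cartilage collagen chain Col9a2 was the lowest gene of the set. The median over the 62 genes was -0.10 with quartiles of -0.36 and 0.29, beside -0.02 with -0.26 and 0.22 over all 8939 features fitted.

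Ctsl had fosBd/d ratios of 1.40 and 1.81, a mean of 1.60 ± 0.29 (SD, n = 2) or 3.04-fold, and ranked 46 from the top of 8939 features. Serping1 had 1.72 and 1.34, a mean of 1.53 ± 0.26 (SD, n = 2) or 2.89-fold, at rank 61. For both genes each array was past 2-fold, and the gap between arrays was small beside the mean. No other gene of the set passed 2-fold with 1 sign on each array: 2 of 62 did so on the positive side, where the share over all features was 1.23%, and 0 on the negative side, where it was 0.347%. At 1.5-fold the same 2 genes were positive on both arrays, beside 3.24%, and Col9a2 was negative, beside 1.31%.

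In limma, fitted on the whole table with a dye term and Benjamini-Hochberg adjustment, 0 of the 62 genes passed an adjusted p of 0.05 for fosBd/d, as was so for all features (0%). The smallest adjusted p in the set was 0.291, shared by Ctsl and Serping1 among others. At an unadjusted p under 0.05 there were 11 of 62 (9 positive, 2 negative), beside a share of 16.0% over all features (9.95% positive, 6.09% negative). With 2 arrays a mutant, an exact permutation of arrays cannot come near 0.05, so none was run.

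Of the 62 genes, 15 were positive on both fosBd/d arrays, beside 21.7% of all features, and 15 were negative on both, beside 22.3%. Opposite signs were seen in 20 (all features 42.7%), and 12 had an exact zero on at least 1 array (13.3%). The median gap between the 2 arrays was 0.52 for the set and 0.46 for all features.

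**Figure D1:**
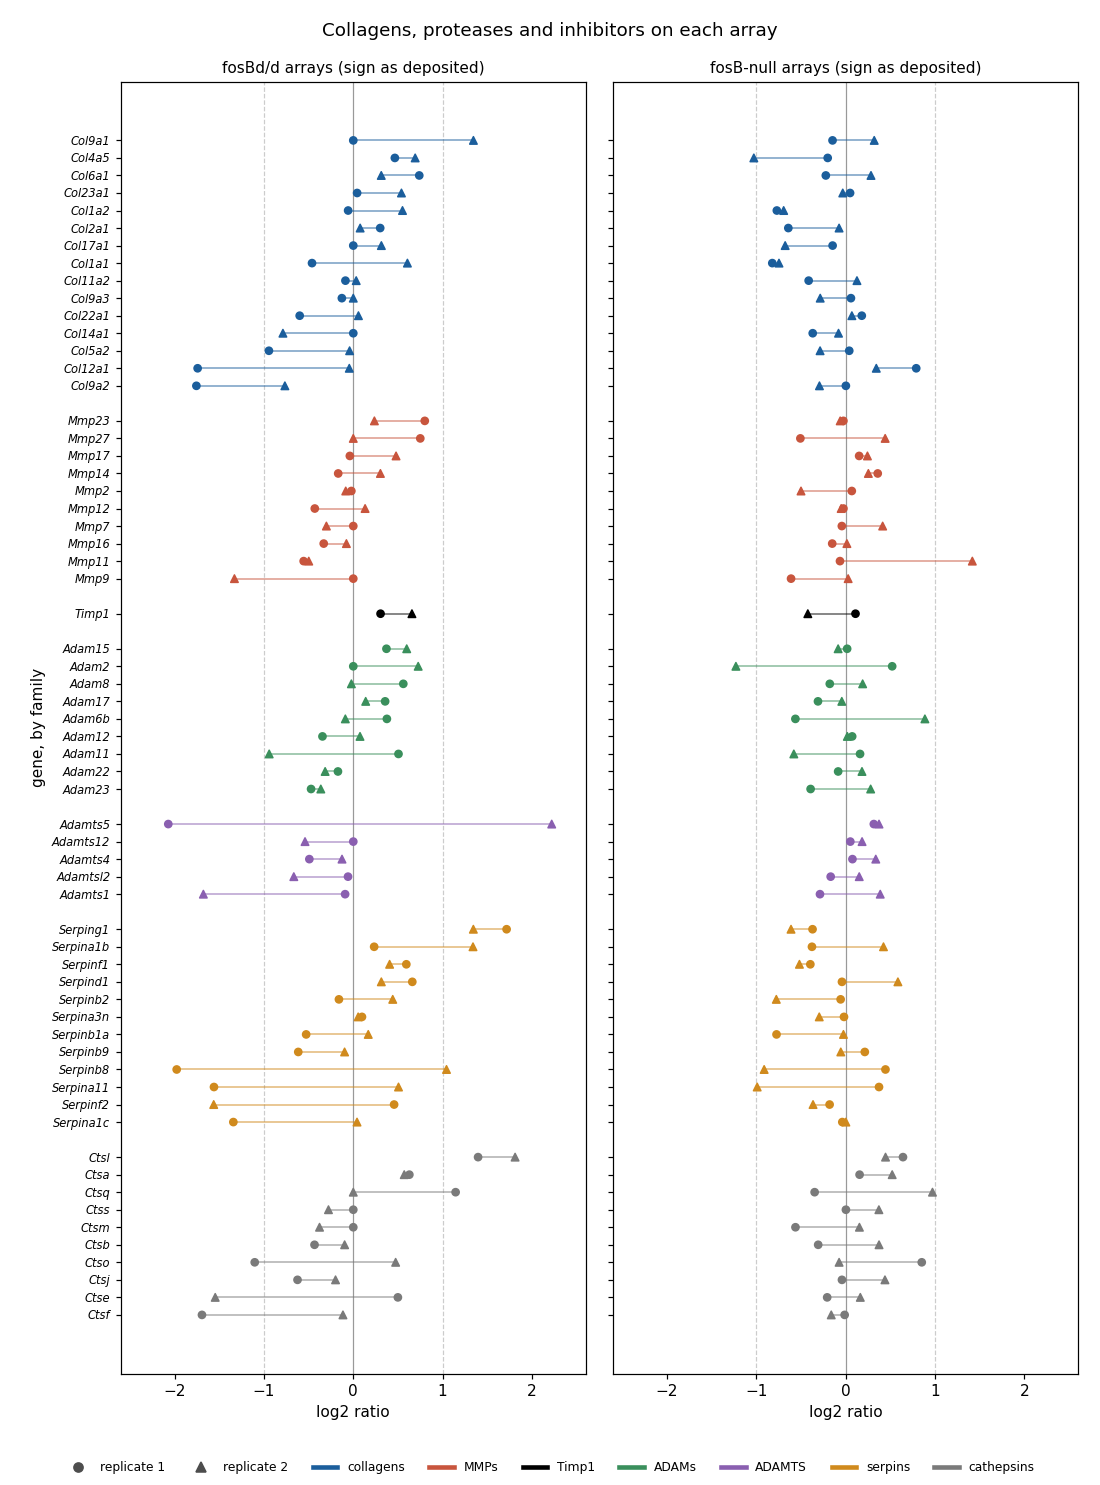
Log2 ratio (x axis) of each of the 62 genes (y axis, grouped by family and sorted by the fosBd/d mean) on each array, with fosBd/d on the left and fosB-null on the right. Circles are replicate 1, triangles replicate 2, lines join the arrays of a gene and dashed lines mark 2-fold; Ctsl and Serping1 have both fosBd/d arrays beyond 2-fold, while Adamts5 spans -2.07 to 2.22.

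Among the fibril-forming collagens, the chains of type I, the main collagen of bone and skin, had no stable fosBd/d sign. Col1a1 had -0.46 and 0.61 and Col1a2 had -0.06 and 0.55, so each gene changed sign between the arrays. Col2a1, the chain of cartilage fibrils, had 0.30 and 0.08, Col11a2 had -0.09 and 0.03, and Col5a2 had -0.94 and -0.04. Of the 5 fibril-forming chains 1 was positive and 1 negative on both arrays, beside 21.7% and 22.3% of all features, and their median was 0.07. The negative chain was Col5a2, whose 2 probes each changed sign between arrays, with -1.95 and 0.21 and with 0.06 and -0.30.

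The chains that decorate fibrils had a median of -0.33 over 6 genes. Of these, 0 were positive and 2 negative on both arrays, beside 21.7% and 22.3% of all features, and 3 had an exact zero (13.3%). The median was -0.36 on replicate 1 and -0.022 on replicate 2. Col9a2, a chain of the type IX collagen of cartilage, had -1.76 and -0.77, a mean of -1.26 ± 0.70 (SD, n = 2) or 2.40-fold below 1, with an unadjusted limma p of 0.014 and an adjusted p of 0.291. Its partner chains did not share this, since Col9a1 had 0.00 and 1.34 and Col9a3 had -0.13 and 0.00. Col12a1 averaged -0.89 over 2 probes, but neither probe was negative on both arrays. On replicates 1 and 2, 1 probe had -3.48 and 0.89 and the other 0.00 and -0.98. Col14a1 stood at -0.39 ± 0.56 and Col22a1 at -0.27 ± 0.46 (SD, n = 2 each).

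The other collagens were on the positive side or at 0. Col4a5, a minor chain of basement membranes, had 0.47 and 0.69 and averaged 0.58 ± 0.16, and Col6a1 averaged 0.53 ± 0.30 (SD, n = 2 each). The transmembrane chains Col23a1 and Col17a1 averaged 0.29 and 0.16. All 4 were well below the 2 collagen IV chains left out of the set, Col4a1 at 2.48 ± 0.25 and Col4a2 at 2.57 ± 0.56 (SD, n = 2 each). Over the 15 chains in the set the median was 0.07, with 4 positive and 3 negative on both arrays, beside 21.7% and 22.3% of all features. The negative chains included Col5a2 and Col12a1, which were so only as averages of their probes. Among the positive chains Col23a1 was an average too, since its probes had 0.33 and 0.25 and -0.24 and 0.83.

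The MMPs had a median of -0.10 and 0 of 10 with an unadjusted limma p under 0.05, beside 16.0% of all features. The gelatinases, which cut denatured collagen and collagen IV, were not alike: Mmp2 had -0.02 and -0.08, while Mmp9 had 0.00 and -1.33, the exact zero coming from replicate 1. Mmp11 (stromelysin 3) had -0.56 and -0.50, and the membrane-anchored Mmp23 had 0.80 and 0.24. Mmp14, the membrane enzyme that activates pro-Mmp2, had -0.17 and 0.30, with Mmp16 at -0.33 and -0.08 and Mmp17 at -0.04 and 0.48. Mmp27 had 0.75 and 0.00. The family thus had 1 gene positive and 3 negative on both arrays, beside 21.7% and 22.3% of all features. Timp1, the only TIMP measured, had 0.31 and 0.66 and averaged 0.48 ± 0.25 (SD, n = 2), 1.40-fold, with an unadjusted limma p of 0.029 and an adjusted p of 0.295.

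The ADAM median was 0.14, but it was 0.36 on replicate 1 and -0.021 on replicate 2. Adam15, a membrane protease with an integrin-binding domain, had 0.37 and 0.60 and averaged 0.48 ± 0.16 (SD, n = 2), and Adam17, the sheddase of TNF and of EGF receptor ligands, had 0.36 and 0.14. Adam22 and Adam23, neural proteins without protease activity, averaged -0.24 and -0.42, and Adam23 had -0.47 and -0.36 on its arrays. Adam11, a relative of these, had 0.51 and -0.94. Adam8 and Adam12 averaged 0.27 and -0.13, the sperm surface protein Adam2 averaged 0.36 with an exact zero on replicate 1, and Adam6b averaged 0.14. Only Adam15 had an unadjusted limma p under 0.05 (0.025, adjusted p 0.291).

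The ADAMTS genes, secreted proteases that cut proteoglycans, had 0 positive and 3 negative on both arrays, beside 21.7% and 22.3% of all features. Their median was -0.31, with -0.091 on replicate 1 and -0.54 on replicate 2. Adamts1 had -0.09 and -1.68 and averaged -0.88 ± 1.12 (SD, n = 2), so its mean rested on replicate 2. The aggrecanase Adamts5 had -2.07 and 2.22, the widest gap of the set, so its mean of 0.08 lay far inside its spread (SD 3.04, n = 2). Adamts4, the other aggrecanase, averaged -0.31, Adamts12 -0.27 and Adamtsl2, which lacks the protease domain, -0.36.

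Among the serpins, 5 of 12 were positive and 1 negative on both fosBd/d arrays, beside 21.7% and 22.3% of all features. The median was -0.05. Beside Serping1, Serpinf1 (pigment epithelium-derived factor, a secreted serpin that does not inhibit proteases) had 0.59 and 0.41 and averaged 0.50 ± 0.13, and Serpind1 (heparin cofactor II, a thrombin inhibitor) had 0.66 and 0.31 and averaged 0.49 ± 0.25 (SD, n = 2 each). Their unadjusted limma p values were 0.037 and 0.036 and their adjusted p values 0.304 and 0.303. Serpina3n had 0.10 and 0.05. The α1-antitrypsin genes Serpina1b, with 0.23 and 1.34, and Serpina1c, with -1.34 and 0.04, are near-identical copies that a cDNA probe may not separate. Serpinf2 (α2-antiplasmin) had 0.46 and -1.56, Serpina11 had -1.56 and 0.51 and Serpinb8 had -1.98 and 1.04, so for these 3 the arrays disagreed in sign. The clade B inhibitors Serpinb1a and Serpinb9 averaged -0.18 and -0.36.

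The cathepsin family had a median of -0.23 although it held Ctsl. Ctsa, the carboxypeptidase that protects lysosomal neuraminidase, had 0.63 and 0.57 and averaged 0.60 ± 0.04 (SD, n = 2), 1.52-fold, with an unadjusted limma p of 0.025. Ctsb, the abundant lysosomal cathepsin B, had -0.43 and -0.10, Ctss, which serves antigen presentation, had 0.00 and -0.28, and Ctsf had -1.69 and -0.12. Ctse, an aspartic protease, had 0.50 and -1.55, and Ctso had -1.10 and 0.47. Of the cathepsins of the rodent placenta, Ctsj had -0.62 and -0.20, Ctsm 0.00 and -0.38, and Ctsq 1.15 and 0.00. Ctsl and Ctsa were thus the only cathepsins positive on both arrays, 2 of 10 beside 21.7% of all features. Negative on both were 3 of 10, beside 22.3%. The left-out Ctsh, another lysosomal cysteine protease, stood at 1.42 ± 0.21 (SD, n = 2).

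**Figure D2:**
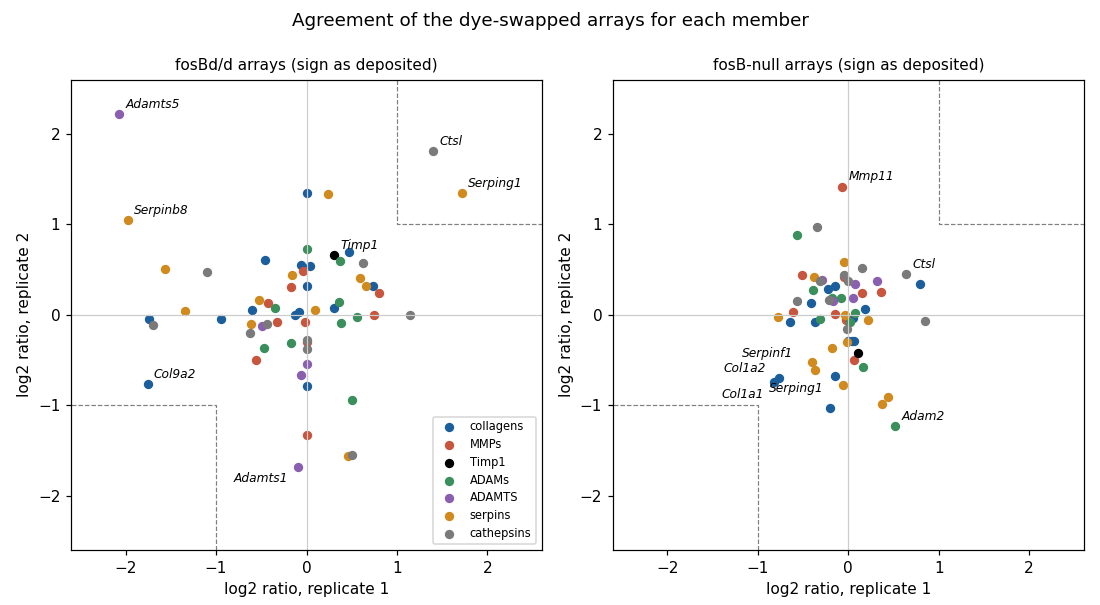
Log2 ratio on replicate 2 (y axis) against replicate 1 (x axis) for the 62 genes, coloured by family, with fosBd/d on the left and fosB-null on the right; dashed corners hold genes past 2-fold on both arrays. Only Ctsl and Serping1 lie in a corner, in fosBd/d, and Adamts5 and Serpinb8 lie far from 0 with opposite signs.

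In fosB-null cells the lowest means of the set as deposited were those of the type I collagen chains, which are the highest with the sign turned. Col1a1 had -0.82 and -0.75 and averaged -0.78 ± 0.05, and Col1a2 had -0.77 and -0.69 and averaged -0.73 ± 0.05 (SD, n = 2 each), sizes of 1.72-fold and 1.66-fold. With the sign turned the means are 0.78 and 0.73. These chains form the same trimer, and both arrays of both genes lay within a narrow range. They stood at ranks 78 and 98 from the bottom of 8939 features. Unadjusted limma p values were 0.091 for Col1a1 and 0.044 for Col1a2, and both adjusted p values were 0.650.

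The set as a whole was near 0 in fosB-null, with a median of -0.03 (0.03 with the sign turned) beside 0.00 over all features. In limma with Benjamini-Hochberg adjustment, 0 of 62 passed, with a smallest adjusted p of 0.650, and 5 of 62 had an unadjusted p under 0.05 (1 positive, 4 negative), beside 6.07% of all features (2.86% positive, 3.21% negative). At 2-fold on both arrays there were 0 genes of the set on either side, where all features had 0.134% positive and 0.0895% negative. As deposited, 11 were positive on both arrays and 16 negative on both, beside 18.7% and 18.9% of all features, and turning the sign exchanges these counts. Opposite signs were seen in 35 (all features 54.8%) and an exact zero in 0 (7.57%).

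Fibril-forming collagens had a median of -0.36 over 5 chains (0.36 with the sign turned), with Col2a1 at -0.64 and -0.07, Col11a2 at -0.41 and 0.13 and Col5a2 at 0.04 and -0.29. Of these 5, 3 were negative and 0 positive on both arrays, beside 18.9% and 18.7% of all features. Col4a5 had -0.20 and -1.03 and Col17a1 had -0.15 and -0.68, and Col17a1 had an unadjusted limma p of 0.043. Col12a1 was the highest collagen as deposited, with 0.79 and 0.34 and a mean of 0.57 ± 0.32 (SD, n = 2), and the lowest with the sign turned, at -0.57. Col6a1, Col9a1, Col9a3, Col22a1 and Col23a1 had means between -0.11 and 0.12. The median over the 15 chains was -0.14, with 2 positive and 6 negative on both arrays, beside 18.7% and 18.9% of all features.

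Serpins had a fosB-null median of -0.25 (0.25 with the sign turned), with 6 of 12 negative and 0 positive on both arrays, beside 18.9% and 18.7% of all features. The median was -0.049 on replicate 1 and -0.33 on replicate 2. Serping1 had -0.37 and -0.61 and averaged -0.49 ± 0.17, and Serpinf1 had -0.40 and -0.52 and averaged -0.46 ± 0.09 (SD, n = 2 each). Serpinb2 had -0.06 and -0.78, and Serpinb1a -0.77 and -0.03. Serpinf1 and Serpinb2 had unadjusted limma p values of 0.044 and 0.035 and adjusted p values of 0.650.

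Cathepsins had a median of 0.19 in fosB-null (-0.19 with the sign turned). On both arrays 3 of 10 were positive and 1 negative, beside 18.7% and 18.9% of all features. The median was -0.027 on replicate 1 and 0.37 on replicate 2, so its sign rested on replicate 2. Ctsl had 0.64 and 0.45 and averaged 0.54 ± 0.14 (SD, n = 2), 1.46-fold, with an unadjusted limma p of 0.024 and an adjusted p of 0.650. Ctsa had 0.16 and 0.52. Ctsq had -0.35 and 0.97 and Ctso 0.85 and -0.07, so neither kept a sign. The left-out Ctsh had 1.72 and 1.29, above every cathepsin of the set as deposited and below every one with the sign turned.

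The matrix protease families had medians smaller in size than those of collagens, serpins and cathepsins, but MMP means ran from -0.29 to 0.68. MMPs had a fosB-null median of -0.04 with Mmp14 at 0.36 and 0.25 and Mmp17 at 0.15 and 0.24, while Mmp11 had -0.06 and 1.42 so that its mean of 0.68 rested on replicate 2. The ADAM median was -0.03. Opposite signs on the arrays were seen in 7 of 9 ADAMs (54.8% of all features), Adam2 with 0.52 and -1.23 most of all. ADAMTS genes had a median of 0.12, and Adamts5, so discordant in fosBd/d, had an even 0.31 and 0.37. Timp1 had 0.11 and -0.42. Timp1 and the families of matrix proteases thus gave no gene with an unadjusted limma p under 0.05.

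**Figure D3:**
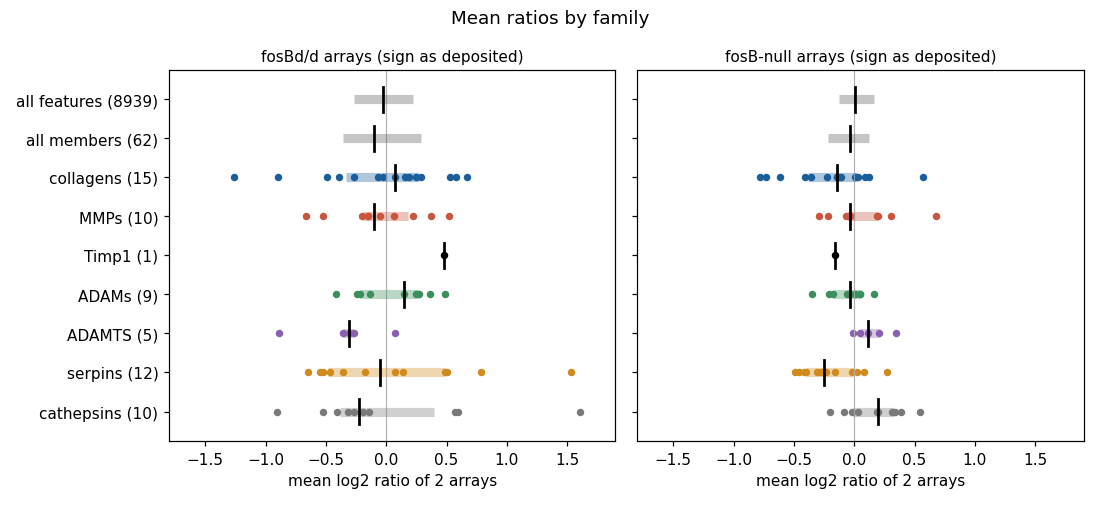
Mean log2 ratio of the 2 arrays (x axis) by family (y axis, number of genes in brackets) with fosBd/d on the left and fosB-null on the right; points are genes, black ticks medians and bars the span between quartiles. Family medians lie between -0.31 and 0.48 in fosBd/d and between -0.25 and 0.19 in fosB-null, with Ctsl and Serping1 as the far points in fosBd/d.

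Set against each other through wild type, the mutants differed most in Serping1. It was higher in fosBd/d by 2.02 ± 0.22 as deposited and by 1.04 ± 0.22 with the fosB-null sign turned (SE taken from the arrays of each mutant, n = 2 each). For Ctsl the differences were 1.06 ± 0.23 as deposited and 2.15 ± 0.23 with the sign turned. Both genes were above fosB-null on every array under either reading of the fosB-null sign, though the order of their differences depended on it. If the fosBd/d sign were the one to turn, as the colour words would have it, both genes would instead be lower in fosBd/d than in fosB-null.

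Col4a5 was higher in fosBd/d by 1.19 ± 0.43 as deposited, and Col12a1, Col9a2 and Mmp11 were lower, with differences of -1.46 ± 0.88, -1.11 ± 0.52 and -1.20 ± 0.74. With the sign turned the values were -0.04 for Col4a5, -0.33 for Col12a1, -1.41 for Col9a2 and 0.15 for Mmp11. Serpinf1 differed by 0.96 ± 0.11 as deposited and by 0.04 with the sign turned, Col1a1 by 0.86 and -0.71, and Col1a2 by 0.98 and -0.49, so for these genes the reading of the sign decides the comparison.

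Differences of at least 2-fold with no overlap of arrays were found in 3 genes above (Serping1, Ctsl and Col4a5) and 3 below (Col9a2, Col12a1 and Mmp11) of 62 as deposited, beside 2.65% and 2.90% of all features. Col12a1 counted as the average of 2 probes, neither of which was negative on both fosBd/d arrays. With the sign turned there were 2 above and 1 below, beside 2.54% and 1.96%. At any size, the fosBd/d arrays were both above the fosB-null arrays in 15 genes (17.0% of all features) and both below in 10 (16.4%) as deposited, and in 10 (14.5%) and 8 (14.0%) with the sign turned. In limma with Benjamini-Hochberg adjustment 0 of 62 passed either way, with smallest adjusted p values of 0.353 and 0.516. At an unadjusted p under 0.05 there were 11 as deposited and 7 with the sign turned, beside 14.0% and 9.25% of all features.

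In fosBd/d, enzymes and chaperones of collagen processing had a median of 0.50 over 13 measured genes, of which 9 lay above 0 on each array, 3 below 0 on each, and 7 had an unadjusted limma p under 0.05 (21.7%, 22.3% and 16.0% of all features). The prolyl hydroxylases P4ha2 (2.03 and 1.83) and P4ha1 (1.65 and 1.85) led, followed by the lysyl hydroxylases Plod1 (1.84 and 1.10) and Plod3 (1.26 and 0.84). Bmp1, which trims procollagen, had 0.62 and 0.37. In fosB-null, 8 of these 13 lay below 0 on each array and 2 above, beside 18.9% and 18.7% of all features. The median was -0.22 (0.22 with the sign turned).

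Lysosomal proteins other than cathepsins had a fosBd/d median of 0.47 over 17 genes. On each array 11 of them lay above 0 and 1 below, and 9 had an unadjusted limma p under 0.05, all of these on the positive side (9.95% of all features). The shares of all features above and below 0 on each array were 21.7% and 22.3%. Lgmn, the asparaginyl endopeptidase that processes cathepsins, had 1.60 and 1.40, and the neuraminidase Neu1 had 1.32 and 0.74. In fosB-null this list had a median of 0.13 (-0.13 with the sign turned). On both arrays 10 of 17 were positive and 1 negative, beside 18.7% and 18.9% of all features, and Lgmn had 0.88 and 0.96. Ctsl and Ctsa shared the sign of this list in each mutant, whereas the median of the 10 cathepsins in fosBd/d did not.

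Other protease inhibitors had a fosBd/d median of 0.17 over 13 genes. Of these, 5 lay above 0 on each array and 0 below, beside 21.7% and 22.3% of all features. The cystatins Cstb and Cst3, which block cathepsins, had 0.99 and 1.21 and 0.69 and 0.63, and Tfpi, the inhibitor of the tissue factor pathway, had 1.39 and 1.57. In plasminogen activation, 4 of 9 genes were positive and 2 negative on both arrays, beside the same shares. The urokinase receptor Plaur had 1.18 and 1.66 and prothrombin F2 had 1.07 and 1.26, while urokinase itself (Plau) had -0.03 and -0.28. Collagen receptors (8 genes) and fibre-associated matrix genes (20 genes) had medians of 0.18 and 0.13. In fosB-null the medians were 0.10 for inhibitors, -0.10 for plasminogen activation, -0.09 for receptors and -0.10 for fibre-associated matrix, all with the opposite sign when turned. In limma with Benjamini-Hochberg adjustment 0 genes of these lists passed in either mutant.

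**Figure D4:**
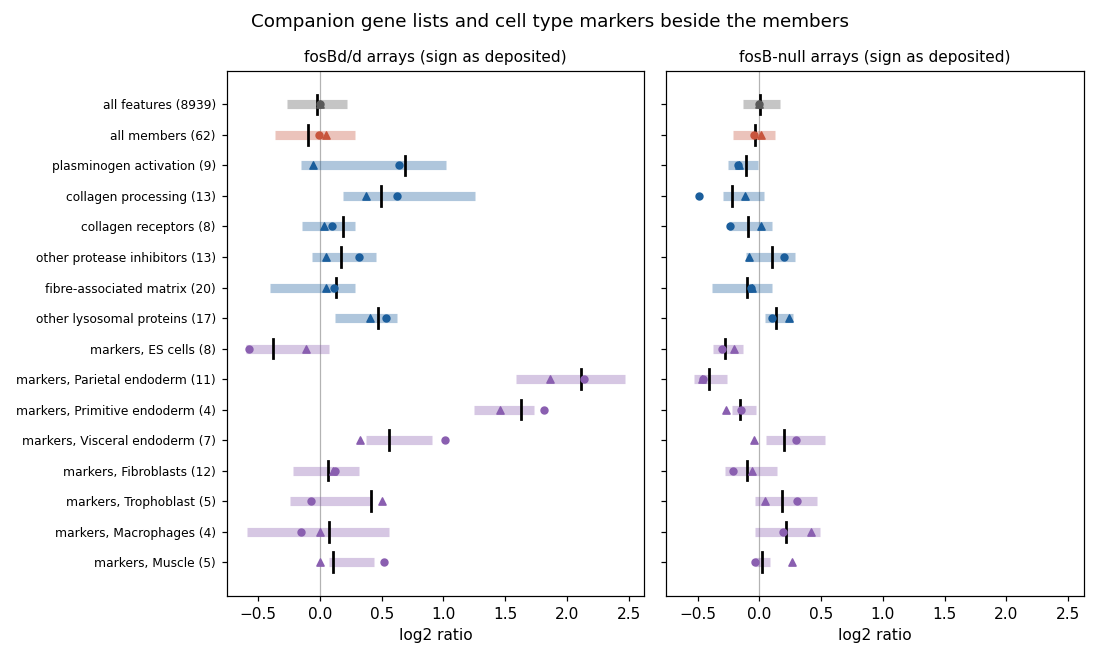
Log2 ratios (x axis) of the 62 genes, companion gene lists and cell type markers (y axis, number measured in brackets), with fosBd/d on the left and fosB-null on the right. Black ticks are medians of the gene means, bars span the quartiles, and circles and triangles are the medians on replicates 1 and 2; parietal endoderm markers stand at a median of 2.11 in fosBd/d.

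Endoderm marker lists had positive medians in fosBd/d. Of 12 parietal endoderm markers 11 were measured, and 9 of the 11 were at least 2-fold positive on both fosBd/d arrays, beside 1.23% of all features, with array medians of 2.14 and 1.86. Of 4 primitive endoderm markers measured, 3 were so, and the visceral endoderm markers had a median of 0.56 over 7 genes. The marker lists were chosen with earlier results of these data known, and the parietal list holds Col4a1 and Col4a2. These counts therefore describe the lists and are not a test against the share of all features. Trophoblast, macrophage and muscle markers had medians of 0.41, 0.07 and 0.10 over 5, 4 and 5 genes. Above 0 on each array were 2, 0 and 2 of them, beside 21.7% of all features. ES cell markers had a median of -0.38 over 8 genes, 4 of them below 0 on each array and 2 above (22.3% and 21.7% of all features). In fosB-null their median was -0.28 (0.28 with the sign turned), with 6 of 8 below 0 on each array and 1 above. Parietal endoderm markers had a fosB-null median of -0.41 (0.41 turned), with 8 of 11 below and 0 above. The shares over all features in fosB-null were 18.9% below and 18.7% above. Primitive and visceral endoderm medians there were -0.16 and 0.20 as deposited. The part of these shifts in the values of Ctsl, Serping1 and Timp1 was not tested, and RNA levels were not analysed here, so which markers lay near background is not given.

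Fibroblast markers, collagens left out, were measured for 12 of 17 genes. In fosB-null, where type I collagen was negative as deposited, their median was -0.10 with array medians of -0.21 and -0.06. On both arrays 4 were negative and 1 positive, beside 18.9% and 18.7% of all features. Tnc had -0.83 and -0.88 and Fbln2 had -0.84 and -0.37, while Dcn and Lum averaged -0.10 each and Thy1 had 1.23 and -0.04. In fosBd/d the fibroblast median was 0.07. The part of these markers in the collagen values was not tested.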

How the data were processed

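Mouse ES cells were compared on 4 cDNA microarrays with 2 colours each. Each array has 1 deposited value for a probe, taken as a log10 ratio between channels, since Agilent Feature Extraction is named in the submitters' processing notes and its log ratio has base 10, with version, background correction, dye normalization and filters not given in the sources used here. If the base were another, every fold would change in scale. Spot intensities were not used here, and having only 4 arrays limits precision. Each column has 9480 values and a median of 0.00.

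Values were multiplied by the log2 of 10. Probes were named from a 2007 platform annotation and symbols brought up to date from a RefSeq table by gene number (6496 of 6566 1-gene probes matched; 392 had several genes and 2522 none listed, and none of those was named). Probes of a gene were averaged; probes with several genes or none stayed single, giving 8939 features. Updating changed 0 symbols of the set. The test was limma 3.58.1 (R 4.3.3) with 1 coefficient for each mutant and another for dye over the 4 arrays (1 residual degree of freedom), two-sided, with Benjamini-Hochberg adjustment over all features and a threshold of 0.05. The step was tested on simulated data. A 2-fold size rule without a test was used beside it. Alternatives were no dye term, exact zeros as missing or left out, centred and scaled arrays, the first probe of each gene, the annotation's own symbols, a 1.5-fold rule, each array left out, and the fosB-null sign turned.

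The members, lists and tests were chosen with earlier results of these data known. Any member could be named; full values went to the Timp genes, fibril and type VI collagens, selected serpins and cathepsins, genes 2-fold on both arrays and the extremes of each family, and from companion lists to genes with the largest fosBd/d mean of 1 sign on both arrays. Genes outside that rule (Bmp1, Cst3, Plau, the fosB-null values and markers), and the windows of Mmp7, Mmp12, Serpinb2, Serpinb8 and Serpina1b, were chosen after their values were seen. Protein motifs named in the plan were not searched.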

Additional observations from a re-analysis of the deposited data

Results flagged for a closer look

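The genes below had every array of fosBd/d on one side of 0 and every array of fosB-null on the other. The difference (fosBd/d minus fosB-null) is untested by this criterion, and limma with Benjamini-Hochberg adjustment gave no adjusted p under 0.05 for any of them (smallest 0.353 as deposited, 0.516 with fosB-null turned). As deposited there were 9 such genes of 62, beside 12.8% of all features. Serping1 differed by 2.02, Col4a5 by 1.19, Serpinf1 by 0.96, Mmp23 by 0.56, Col2a1 by 0.55, Adam17 by 0.42 and Serpina3n by 0.23, with fosBd/d on the positive side. Col12a1 differed by -1.46 and Adamts4 by -0.51, with fosBd/d on the negative side. For Col12a1 the shared sign in fosBd/d came from averaging 2 probes. They had 0.00 and -0.98, and -3.48 and 0.89, so neither was negative on both arrays.

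With the fosB-null sign turned there were 3, beside 8.37% of all features. Ctsl differed by 2.15 and Ctsa by 0.94, with fosBd/d positive, and Ctsf differed by -0.99. These 3 genes had the same sign in both mutants as deposited. With 2 arrays a mutant, no array could be judged as standing apart within its group.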

How the results depend on the processing

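In limma with Benjamini-Hochberg adjustment, 0 of the 62 genes passed in any comparison under any alternative run. The smallest adjusted p ranged from 0.231 to 0.879 for fosBd/d, from 0.592 to 1 for fosB-null and from 0.314 to 0.968 between the mutants, while counts at an unadjusted p under 0.05 ran from 2 to 12, from 0 to 10 and from 1 to 11. Without a dye term these counts were 6, 3 and 5, and with arrays centred and scaled they were 6 for fosBd/d and 10 for fosB-null. A fit that leaves out an array has no dye term and assumes that the lone array varies like the other mutant's.

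At 1.5-fold, 1 gene was negative on both fosBd/d arrays and 2 on both fosB-null arrays, beside 1.31% and 0.515% of all features. At this size 7 genes stood above fosB-null in fosBd/d. Shares over all features were not computed for that count or the single-array counts below, so these cannot be set against background. With a single array left, the 2-fold count in fosBd/d was 6 positive and 4 negative without replicate 1, and 3 positive and 8 negative without replicate 2. In fosB-null it ran from 0 to 1 positive and from 0 to 2 negative, the higher counts being those without replicate 1. Between the mutants it ran from 3 to 10 above, the highest without fosBd/d replicate 1, and from 3 to 9 below, the highest without fosBd/d replicate 2.

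Family medians kept within the spread of arrays in 194 of the comparisons with an alternative and moved in 38. Part of the 194 was fixed beforehand, since leaving out the dye term or an array of the other mutant cannot change a mutant's median. In fosBd/d the MMP median was -0.063 with exact zeros as missing and -0.073 with arrays scaled, and the ADAM median was -0.13 with zeros as missing. Leaving out any 1 of the 4 arrays gave -0.10 to 0.048 for all 62 genes, -0.058 to 0.077 for collagens and -0.10 to -0.030 for MMPs. It gave -0.021 to 0.36 for ADAMs, -0.54 to -0.091 for ADAMTS, -0.052 to 0.36 for serpins and -0.23 to 0.00 for cathepsins. The lower ends for all 62, MMPs, serpins and cathepsins were the unchanged medians, from leaving out a fosB-null array. Without fosBd/d replicate 1 the medians of these were 0.048 for all 62, -0.038 for MMPs, 0.36 for serpins and -0.11 for cathepsins. Without fosBd/d replicate 2 they were -0.011, -0.030, -0.032 and 0.00 in that order. In fosB-null, turning the sign gave 0.034 for all 62, 0.14 for collagens, -0.12 for ADAMTS, 0.25 for serpins and -0.19 for cathepsins. Leaving out an array gave -0.043 to 0.016 for all 62, -0.15 to -0.081 for collagens, -0.036 to 0.14 for MMPs and -0.085 to 0.018 for ADAMs. It gave 0.052 to 0.34 for ADAMTS, -0.33 to -0.049 for serpins and -0.027 to 0.37 for cathepsins. Of these ends, -0.036 for MMPs was the unchanged median, beside -0.035 without fosB-null replicate 2.

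For fosBd/d minus fosB-null, turning the fosB-null sign gave -0.16 for all 62 (1 gene 2-fold below), -0.18 for collagens, 0.092 for MMPs, -0.28 for serpins and -0.082 for cathepsins, and the first probe of each gene gave 0.49 for collagens. Leaving out an array gave -0.15 to 0.071 for all 62, 0.057 to 0.30 for collagens, -0.21 to 0.015 for MMPs, -0.027 to 0.35 for ADAMs, -0.66 to -0.14 for ADAMTS, 0.15 to 0.69 for serpins and -0.45 to 0.0089 for cathepsins. Of the single-gene values, 715 kept within the spread, 38 moved and 1 was reversed, that is, a value counted at 2-fold changed sign. The reversed value was Mmp11 between the mutants, with the fosB-null sign turned. The 715 do not measure stability. With 2 arrays a mutant, leaving out an array cannot move a gene's value beyond its own spread. Leaving out the dye term cannot change it. With the fosB-null sign turned, differences between the mutants changed sign for several genes, which follows from that change itself: the value was 0.15 for Mmp11 against -1.20 as deposited, -0.71 for Col1a1 against 0.86, -0.49 for Col1a2 against 0.98 and -0.17 for Col2a1 against 0.55. Except for the sign change, the cause was not tested. No paired analysis was possible because the replicate numbers only follow accession order; the labels give arrays of both mutants the same dye orientation but no shared culture or extract.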

Other observations

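Some chains of the same collagens sat on probes that the annotation gives to several genes, and were named in no comparison. The 2 probes shared by Col5a1 and AI413331 had fosBd/d means of 0.61 and -0.52 and fosB-null means of 0.01 and -0.29, so probes with the same annotation disagreed in sign in fosBd/d. The probe shared by Col6a2 and Lca5l had means of 0.09 in fosBd/d and -0.24 in fosB-null. The 3 probes shared by α1-antitrypsin genes had fosBd/d means of -0.13, 0.63 and 0.00 and fosB-null means of -0.01, 0.25 and 0.74.

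Of the 62 genes, 5 had 2 probes, and these did not always agree. For Col5a2 the fosBd/d means were -0.12 and -0.87, for Col12a1 -0.49 and -1.30, for Col14a1 -0.26 and -0.52, for Col23a1 0.29 and 0.29, and for Adam22 -0.35 and -0.13. The equal Col23a1 means came from unlike arrays, 0.33 and 0.25 on 1 probe and -0.24 and 0.83 on the other. In fosB-null the Col5a2 probes were at 0.26 and -0.51 and those of Col23a1 at 0.21 and -0.20.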
